A study of Mus musculus with 6 samples.

Results

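Transcript levels of 9 complement components and regulators (*C1qa*, *C1qb*, *C1qc*, *C3*, *C4b*, *Cfb*, *Serping1*, *Cd55* and *Cd59a*) were examined in mouse Sertoli cells. The genes were chosen by name, with earlier results of these data known, and all 9 were found among the 28262 genes of the deposited count table. RNA-seq had been made from Sertoli cells isolated from testes of 20-day-old C57BL/6 mice and kept untreated in culture at 34 °C. There were 3 libraries from *Pa1F/F* mice (labelled PA1flox/flox), which carry the floxed *Pa1* alleles and served as controls. The other 3 libraries came from *Amh-pa1-/-* mice (labelled PA1-/-), in which a Cre recombinase under the *Amh* promoter deletes the floxed alleles in Sertoli cells. The Cre acts in Sertoli cells, whereas isolated preparations can also hold other cells of the testis, in which the gene would not be deleted. The level of *Pa1* was not analysed here, and genotypes were taken from the labels without a check. The labels do not say whether replicates came from separate animals or cultures, and p-values then measure only the spread between these libraries, which may be technical.

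Complement is a cascade of plasma and tissue proteins that tags and lyses targets. The classical pathway starts when C1q, built from the chains encoded by *C1qa*, *C1qb* and *C1qc*, binds a surface and activates the proteases C1r and C1s. These cleave C4 and C2, while factor B, encoded by *Cfb*, serves the alternative pathway, and both routes cleave C3, the central component. Host cells are protected by C1 inhibitor (*Serping1*), which blocks C1r and C1s, by CD55, which dissociates the convertases, and by CD59, which stops assembly of the membrane attack complex. C1q is made largely by macrophages and other myeloid cells, and Sertoli cells are known to shield germ cells from immune attack, with complement inhibitors among the factors studied.

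Library totals ranged from 14051353 to 16231443 counts in *Pa1F/F* cells and from 13203757 to 15247587 counts in *Amh-pa1-/-* cells. Values are given as normalized read counts, that is, counts scaled to a common effective library size, on which a floor of 3 counts equals 2.72 to 3.38. Of 15 Sertoli cell markers, 13 passed the filter on low counts, and 5 were lower at an adjusted p under 0.05 by edgeR, beside 17.1% of all tested genes, while the other 8 passed in neither direction. Their summed level was 256160 to 261110 in *Pa1F/F* and 158700 to 198910 in *Amh-pa1-/-* libraries. *Clu* made up most of this sum and of its fall, at 194100, 193510 and 192490 against 105690, 107470 and 146320 in replicates 1 to 3. *Sox9*, which passed in neither direction, was at 4983, 4290 and 4688 against 4904, 4786 and 3172, so the labelled cell type was present in every library. 1 library stood apart among the controls. All 25 interferon response genes on a list of known targets were highest in *Pa1F/F* replicate 2, each more than 1.5 times the mean of replicates 1 and 3. This list, like the members, was chosen with earlier results of these data known. Within the groups, *Pa1F/F* replicates 1 and 3 and *Amh-pa1-/-* replicates 1 and 2 were close to each other, with chi-square values of 2.23 and 1.67 per degree of freedom over genes, against 18.4 to 30.8 for the other pairs.

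7 of the 9 members passed the filter on low counts, and *C1qa* and *Cfb* did not. With edgeR's quasi-likelihood test and Benjamini-Hochberg adjustment over 14919 genes, *C1qc* was called lower in *Amh-pa1-/-* cells (adjusted p under 0.05 and a log2 fold change of -1 or below). This was 1 of 7 tested members, beside 6.56% of all tested genes. *Serping1* was also lower by adjusted p alone, which made 2 of 7 members, beside 17.1% of all tested genes. None of the 7 was higher, either with the fold threshold, which 5.44% of all tested genes passed in that direction, or without it, which 18.2% passed. At an unadjusted p under 0.05 edgeR gave 3 lower members and 1 higher, *Cd55*. The share of all genes at that cut was not computed, so these counts are not read further. DESeq2 and limma-voom also called 0 higher. In 2 of 7 the groups did not overlap, beside 52.4% of all tested genes. For the tested members the median log2 fold change was -0.66, and for all tested genes it was 0.00. The shares of members past the thresholds therefore lay near those of all genes or rested on 1 or 2 genes, and the members are described singly.

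**Figure D1:**
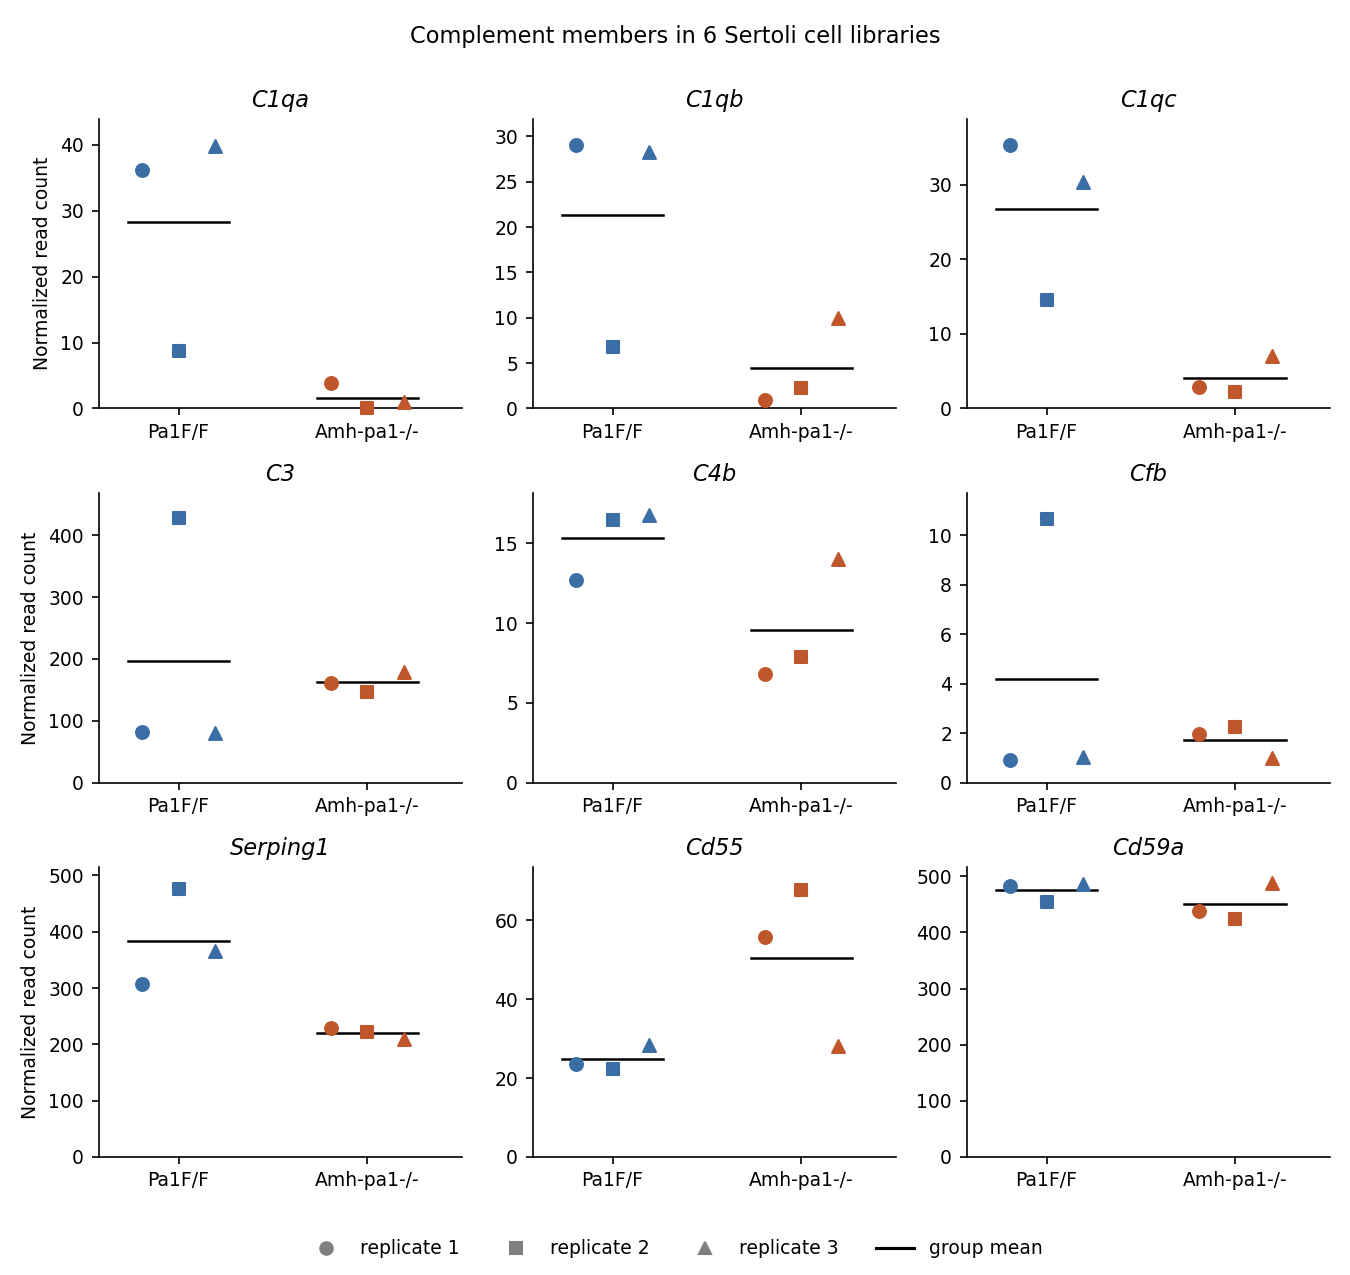
Normalized read count (vertical axes, each from 0) of the 9 members in 3 Pa1F/F and 3 Amh-pa1-/- libraries, where symbols give the replicate number and black lines the group means. C1qa, C1qc and Serping1 did not overlap between the groups, and C3 and Cfb were highest in Pa1F/F replicate 2.

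The C1q genes lie side by side on chromosome 4 of GRCm38, with *C1qb* (ENSMUSG00000036905) at 136880129 to 136886187, *C1qc* (ENSMUSG00000036896) at 136889804 to 136893065 and *C1qa* (ENSMUSG00000036887) at 136895917 to 136898803. RefSeq promoter windows on GRCm38.p6 were held for 5 of the 9 members, *C1qb*, *C1qc*, *C3*, *Cd55* and *Cd59a*. The windows of the pair of C1q chains are shown because both genes had lower means in *Amh-pa1-/-* cells, and that of *C3* because its level followed 1 library. Each sequence is the minus strand, 5′ to 3′, upstream of the RefSeq start. Capitals mark matches on either strand to the ETS core AGGAAG in the C1q genes and to the C/EBP letters TTGCNNAA in *C3*. The *C1qc* window is shown without the 151 bases that fall inside the deposited gene.
C1qb, chr4:136886201-136886450: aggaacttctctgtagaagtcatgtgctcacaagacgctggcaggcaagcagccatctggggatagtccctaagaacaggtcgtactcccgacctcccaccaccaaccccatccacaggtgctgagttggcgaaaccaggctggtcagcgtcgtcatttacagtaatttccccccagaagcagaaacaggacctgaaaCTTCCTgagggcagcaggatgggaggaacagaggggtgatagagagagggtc
C1qc, chr4:136893066-136893164: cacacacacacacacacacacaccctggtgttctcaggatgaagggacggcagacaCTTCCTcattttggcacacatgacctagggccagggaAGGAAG
C3, chr17:57228137-57228386: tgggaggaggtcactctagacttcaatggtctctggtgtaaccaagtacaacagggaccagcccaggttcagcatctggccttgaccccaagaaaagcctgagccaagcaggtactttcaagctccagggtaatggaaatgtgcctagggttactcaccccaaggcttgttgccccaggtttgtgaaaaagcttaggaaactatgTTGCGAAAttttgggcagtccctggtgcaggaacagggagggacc

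Windows of 250 bases before the start were searched on both strands for 4 motifs, none of which overlapped another in these members. The ETS core was found once in *C1qb*, 52 to 47 bases before the start, and at 2 places in *C1qc*, and 29.5% of all 32851 windows held it. The C/EBP letters TTGCNNAA were found in *C3*, 45 to 38 bases before the start, and 9.56% of all windows held them. An interferon response element, AAANNGAAA, was found in *Cd59a* and in 9.37% of all windows, while the AP-1 letters TGANTCA, in 6.75% of all windows, were in none of the 5. *Cd55* held none of the 4. These matches describe letters, not bound sites.

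All C1q chains had lower mean levels in *Amh-pa1-/-* cells, and *C1qc* fell. *C1qc* was at 35.3, 14.5 and 30.4 normalized counts in *Pa1F/F* replicates 1 to 3 and at 2.93, 2.25 and 7.01 in *Amh-pa1-/-* replicates 1 to 3. The lowest control library was above the highest knockout library. The means were 26.8 ± 10.9 and 4.07 ± 2.58 (SD, n = 3 each), and the log2 fold change was -2.67 (SE 0.53, adjusted p = 0.00930 by edgeR). *C1qc* kept an adjusted p under 0.05 with each library left out, with log2 fold changes of -3.30 to -2.39, and lost it when the close libraries of each group were summed (adjusted p = 0.0968). It passed the filter through the controls, with 39, 15 and 29 counts against 3, 2 and 7, so that replicates 1 and 2 of the knockouts lay at or under the floor of 3 counts, and a filter of at least 10 counts in every library left it out.

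*C1qb* was at 29.0, 6.78 and 28.3 normalized counts in *Pa1F/F* and at 0.976, 2.25 and 10.02 in *Amh-pa1-/-* replicates 1 to 3. The groups overlapped, since *Pa1F/F* replicate 2 lay below *Amh-pa1-/-* replicate 3. The log2 fold change was -2.23 (SE 0.82) and missed the threshold with an adjusted p of 0.0750 by edgeR. It was -2.65 without *Pa1F/F* replicate 2 (adjusted p = 0.0341) and -3.66 without *Amh-pa1-/-* replicate 3 (adjusted p = 0.0182), so that either library decided the call. With the other libraries left out in turn it was -1.99 to -1.74 with adjusted p of 0.184 to 0.202, and with the close libraries summed it was -1.87 with an adjusted p of 0.303. DESeq2 gave an adjusted p of 0.0493.

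*C1qa* was at 36.2, 8.71 and 39.9 normalized counts in *Pa1F/F* and at 3.90, 0 and 1.0 in *Amh-pa1-/-* replicates 1 to 3. These were 87 counts in all against 5, the groups did not overlap, and an exact two-sided permutation test gave 0.1, the smallest p that 3 against 3 allows. The gene did not pass the filter on low counts. Without that filter its log2 fold change was -3.93 with an adjusted p of 0.00366 by edgeR, and with DESeq2 it was -4.07 with an adjusted p of 0.000368. With the close libraries summed it was -3.77 and missed the threshold, with an adjusted p of 0.0821. The knockout counts were 4, 0 and 1, so that these fitted sizes depend on the prior count, and they ran from -5.43 without *Amh-pa1-/-* replicate 1 to -3.44 without replicate 2.

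The chains varied alike within the controls, where all were lowest in *Pa1F/F* replicate 2, and within the knockouts *C1qa*, with 4, 0 and 1 counts, was not highest in replicate 3 as the others were. Together they summed to 101, 30.0 and 98.6 normalized counts in *Pa1F/F* and to 7.81, 4.51 and 18.0 in *Amh-pa1-/-* replicates 1 to 3. *Pa1F/F* replicate 2 held 0.229 of the mean of replicates 1 and 3 for *C1qa*, 0.237 for *C1qb* and 0.442 for *C1qc*. *Amh-pa1-/-* replicate 3 held 6.21 times the mean of replicates 1 and 2 for *C1qb* and 2.71 times for *C1qc*, on 10 and 7 counts. In bulk samples fewer cells of a type and less RNA per cell cannot be told apart.

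Macrophage markers were lower beside C1q. Of 18 markers, 15 were tested, 12 were lower and 2, *Cd74* and *H2-Aa*, were higher at an adjusted p under 0.05 by edgeR. Among the lower genes *Adgre1*, *Ptprc*, *Tyrobp*, *Fcer1g* and *Laptm5* were under 10 counts in every knockout library and passed the filter through the controls, and *Cd74* passed it through the knockouts. The list's sum ran from 2574 to 2796 normalized counts in *Pa1F/F* and from 1992 to 2024 in *Amh-pa1-/-* libraries, and without *Cd74* and *H2-Aa*, genes of antigen presentation, from 2439 to 2657 and from 1275 to 1474. *Csf1r*, the receptor for macrophage colony-stimulating factor, was at 42.6, 84.2 and 59.8 and at 10.7, 9.01 and 13.03 in the order above, and *Adgre1*, which encodes F4/80, at 23.6, 62.0 and 14.7 and at 2.93, 4.51 and 2.0. *Mrc1*, the mannose receptor and the most abundant marker of the list, did not pass the test, at 986, 1023 and 945 against 1180, 1216 and 932 (log2 fold change 0.17, SE 0.11, adjusted p = 0.254). In *Amh-pa1-/-* replicate 3, where *C1qb* and *C1qc* were highest within the group, *Tyrobp*, an adaptor of myeloid receptors, was at 0, while *Lyz2*, lysozyme, was at 85.2 against 24.4 and 32.7 in replicates 1 and 2, and *Ctss*, cathepsin S, at 33.1 against 15.6 and 16.9. In *Pa1F/F* replicate 2, where the C1q chains were low, *Csf1r* and *Adgre1* were at their highest. Of markers of other cells of the testis, 3 of 4 tested Leydig cell genes were lower, and 3 of 6 fibroblast genes were lower. Of 4 endothelial genes 2 were lower and 1, *Vwf*, was higher. 1 of 5 peritubular myoid genes was higher, 3 of 6 mesothelial genes were higher, and 1 of 3 germ cell genes, *Ddx4*, was lower. Among all tested genes 17.1% were lower and 18.2% higher. *Ddx4* passed the filter through the controls, and *Vwf*, *Krt19* and *Upk3b* passed it through the knockouts. The part of these cells in the C1q result was not tested.

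**Figure D2:**
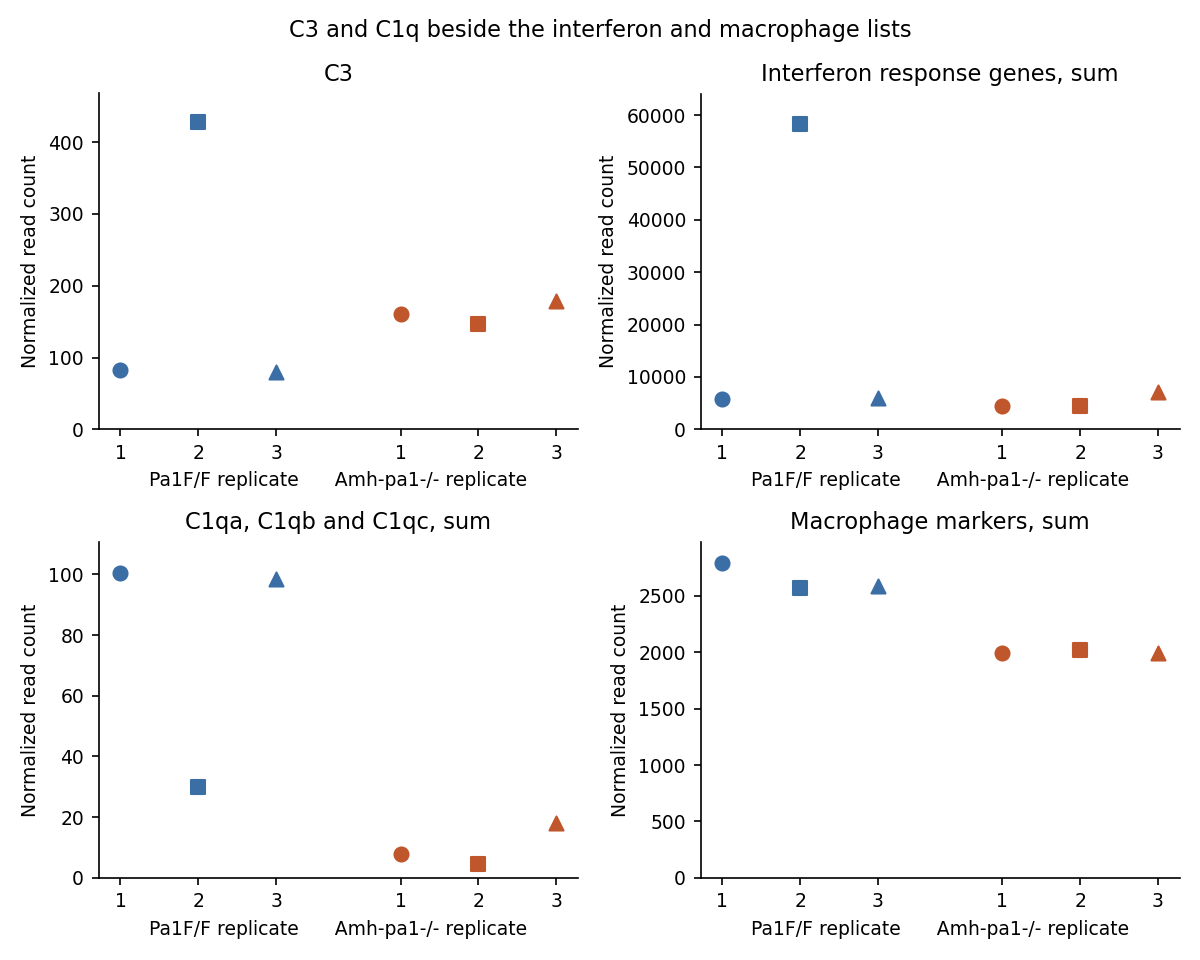
Normalized read count (vertical axes, each from 0) in each library of C3, of 25 summed interferon response genes, of the 3 summed C1q chains and of 18 summed macrophage markers, by group and replicate. C3 and the interferon sum were both highest in Pa1F/F replicate 2, where the C1q sum was lowest among the controls at 30.0.

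*C3* (ENSMUSG00000024164, chromosome 17, 57203970 to 57228136, minus strand) had a direction that 1 library decided. It was at 82.5, 428 and 79.7 normalized counts in *Pa1F/F* and at 161, 146 and 178 in *Amh-pa1-/-* replicates 1 to 3. All knockout libraries lay above *Pa1F/F* replicates 1 and 3 and below *Pa1F/F* replicate 2, which was 5.28 times the mean of the other controls. The means were 197 ± 200.3 and 162 ± 16.0 (SD, n = 3 each), with a log2 fold change of -0.28 (SE 0.64, adjusted p = 0.765 by edgeR). Without *Pa1F/F* replicate 2 the log2 fold change was 0.996, with an adjusted p of 0.00736 by edgeR, and the mean in *Amh-pa1-/-* cells was 2.0 times that of the controls. The log2 fold change was also positive with limma-voom, at 0.19.

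The interferon response genes stood with *C3* in *Pa1F/F* replicate 2, where the list summed to 58371 normalized counts, against 5830 and 6003 in replicates 1 and 3. In *Amh-pa1-/-* replicates 1 to 3 it summed to 4376, 4454 and 7080. With edgeR 1 of the 24 tested genes was called lower, *Oasl2*, an interferon-induced oligoadenylate synthetase-like gene, with a log2 fold change of -3.58 (SE 1.01, adjusted p = 0.0327), beside 6.56% of all tested genes. 7 of the genes were called lower without *Amh-pa1-/-* replicate 3, 4 without *Pa1F/F* replicate 3, 2 without *Pa1F/F* replicate 1, 1 without *Pa1F/F* replicate 2, where 2 others were called higher, and 0 without *Amh-pa1-/-* replicate 1 or 2.

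Acute phase genes, which the liver and other tissues raise in inflammation and among which C3 and factor B are usually counted, were also high there. Of 17 such genes measured, 10 were over 1.5 times higher in *Pa1F/F* replicate 2 than the mean of replicates 1 and 3, and the list summed to 3897, 9154 and 3757 normalized counts in *Pa1F/F* and to 3831, 3646 and 5617 in *Amh-pa1-/-* replicates 1 to 3. Of 13 tested, 4 were called lower and 1, *Il1r1*, an interleukin 1 receptor, was called higher, beside 6.56% and 5.44% of all tested genes. *Saa3*, *Hp* and *Steap4* passed the filter on low counts through the controls, and with at least 10 counts in every library 1 gene was called lower. *Saa3*, which encodes a serum amyloid A, was at 31.7, 876 and 50.3 in *Pa1F/F* and at 0, 1.13 and 1.0 in *Amh-pa1-/-* libraries, and *Hp*, haptoglobin, at 10.9, 379 and 21.0 and at 0.976, 0 and 0. *Cebpb*, a C/EBP transcription factor, was lower without such a spread, at 56.2, 52.3 and 57.7 against 21.5, 19.2 and 20.0, with a log2 fold change of -1.45 (SE 0.18, adjusted p = 0.00172). *Steap4*, a metalloreductase, was the other gene called lower. Only 1 acute phase gene was called lower without *Amh-pa1-/-* replicate 1 or without replicate 2, and 6 were without replicate 3. Without *Pa1F/F* replicate 2, 4 were called lower and 1 higher, the same counts as with all 6 libraries.

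*Cfb*, at chromosome 17, 34856374 to 34862518, showed its counts in the same control library. It had 1, 11 and 1 counts in *Pa1F/F* and 2, 2 and 1 in *Amh-pa1-/-* replicates 1 to 3, and was not tested. Apart from *Pa1F/F* replicate 2 every library lay under the floor of 3 counts. Without the filter its log2 fold change was -1.21 with an adjusted p of 0.517 by edgeR. *Cfb* neighbours *C2* and a read-through model spans both genes, so reads could have been left unassigned, which was not tested. Among the 14919 tested genes 917, or 6.15%, were over 1.5 times higher in *Pa1F/F* replicate 2 than in the mean of the other controls, and 136, or 0.912%, over 4 times.

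*C4b* (chromosome 17, 34728380 to 34743882), which encodes C4, was at 12.7, 16.5 and 16.8 normalized counts in *Pa1F/F* and at 6.83, 7.89 and 14.0 in *Amh-pa1-/-* replicates 1 to 3. *Amh-pa1-/-* replicate 3 lay within the control range and the other knockout libraries below it. The log2 fold change was -0.66 (SE 0.36, adjusted p = 0.193 by edgeR), and it was -1.04 without *Amh-pa1-/-* replicate 3 (adjusted p = 0.0568). *C4a*, a near-identical copy whose reads the counting could split from those of *C4b*, had a log2 fold change of 0.05 (SE 0.29, adjusted p = 0.916), so the value of *C4b* is uncertain.

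*Serping1* (ENSMUSG00000023224, chromosome 2, 84765387 to 84775444) encodes C1 inhibitor and fell by less than the fold threshold. It was at 307, 476 and 366 normalized counts in *Pa1F/F* and at 229, 222 and 209 in *Amh-pa1-/-* replicates 1 to 3. The groups did not overlap, the knockout libraries lay within a narrow range, and *Pa1F/F* replicate 2 was the highest library. The means were 383 ± 85.9 and 220.2 ± 10.1 (SD, n = 3 each), and the log2 fold change was -0.80 (SE 0.17, adjusted p = 0.0107 by edgeR). Without *Pa1F/F* replicate 2 the log2 fold change was -0.61 with an adjusted p of 0.0144. With each library left out it stayed below 0, from -0.93 to -0.61, and its adjusted p rose to 0.0712 when the close libraries were summed.

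*Cd55* (ENSMUSG00000026399, chromosome 1, 130439027 to 130462744), the decay-accelerating factor, was the only tested member with a positive log2 fold change over all 6 libraries. It was at 23.6, 22.3 and 28.3 normalized counts in *Pa1F/F* and at 55.6, 67.6 and 28.1 in *Amh-pa1-/-* replicates 1 to 3. *Amh-pa1-/-* replicate 3 lay inside the control range, and the other knockout libraries above all controls. The log2 fold change was 1.02 (SE 0.35) and missed the threshold with an adjusted p of 0.0584 by edgeR. Without *Amh-pa1-/-* replicate 3 it was 1.32 with an adjusted p of 0.00340, and with the other libraries left out in turn its adjusted p was not under 0.05.

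*Amh-pa1-/-* replicate 3 also differed from the other knockout libraries in markers of other cells, whose part in the *Cd55* value was not tested. The 6 peritubular myoid cell markers summed to 18639 normalized counts in it against 12679 and 12179, and the 7 fibroblast markers to 60362 against 32357 and 32161. Germ cell markers did not move together: *Uchl1*, which made up most of their sum, was at 1457 in it against 2751 and 2907, and *Dazl* was at 45.1 against 8.79 and 6.76.

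*Cd59a* (ENSMUSG00000032679, chromosome 2, 104095801 to 104115354), which encodes the inhibitor of the membrane attack complex, was nearly level. It was at 483, 455 and 487 normalized counts in *Pa1F/F* and at 438, 425 and 488 in *Amh-pa1-/-* replicates 1 to 3. The groups overlapped, and the log2 fold change was -0.08 (SE 0.08, adjusted p = 0.517 by edgeR), with a range of -0.14 to -0.01 over the alternatives. Its paralog *Cd59b* had a log2 fold change of 0.17 (SE 0.23, adjusted p = 0.596).

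**Figure D3:**
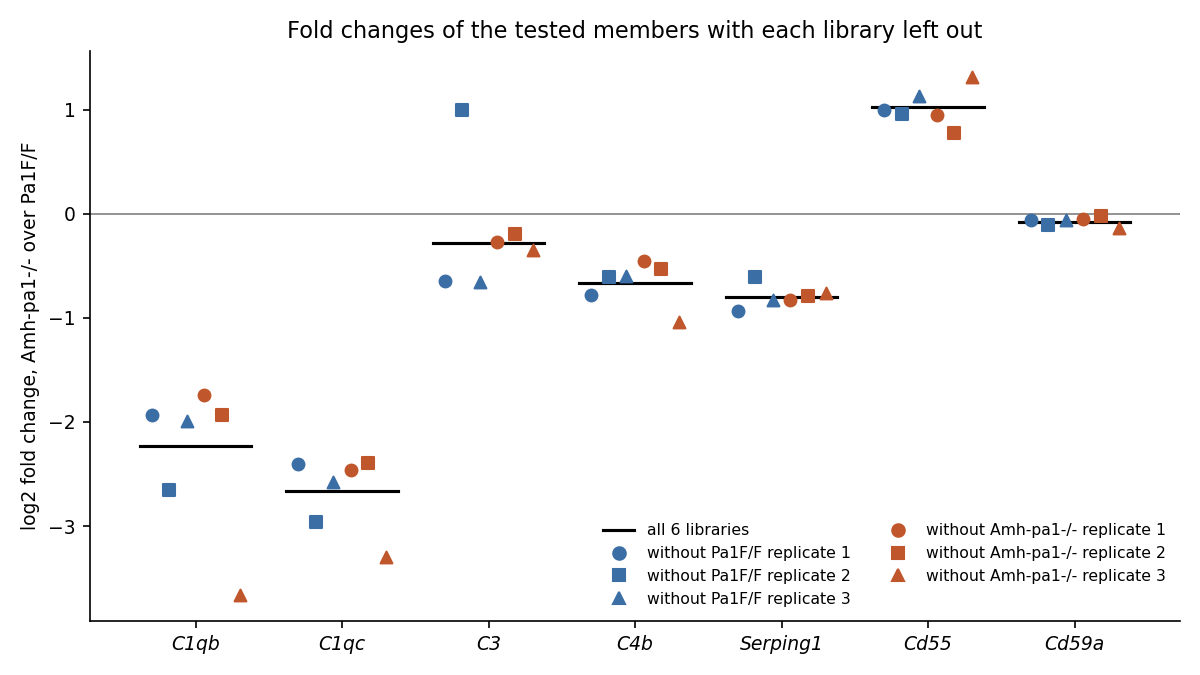
log2 fold change (vertical axis, Amh-pa1-/- over Pa1F/F) of the 7 tested members with all 6 libraries (black lines) and with each library left out in turn (symbols). C3 changed from -0.28 to 0.996 without Pa1F/F replicate 2, while no other tested member changed sign.

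Levels of different genes were compared per length, as reads per kilobase of the Ensembl canonical transcript, scaled to library size (RPKM). In *Pa1F/F* cells *Cd59a* (18.9 ± 0.689) and *Serping1* (14.2 ± 3.18) were the most abundant members (mean ± SD, n = 3), and every library of *Cd59a* lay above every library of *Serping1*. *C3* (2.59 ± 2.64), *C1qa* (1.77 ± 1.07) and *C1qc* (0.983 ± 0.399) followed, and these did not differ beyond their spread. The place of *C3* rested on *Pa1F/F* replicate 2, with 5.64 against 1.09 and 1.051 in replicates 1 and 3, which lay below the 2.27 and 2.49 of *C1qa* there. *C1qb* (0.574 ± 0.339) and *Cd55* (0.514 ± 0.0662) had lower means and were alike, though the spread of *C1qb* overlapped that of *C1qc*. *C4b* (0.192 ± 0.0285) and *Cfb* (0.0854 ± 0.114) had the lowest means. In *Amh-pa1-/-* cells *Cd59a* (18.0 ± 1.33) and *Serping1* (8.17 ± 0.374) stayed first in the same order. *Cd55* (1.048 ± 0.421) came next after *C3* (2.14 ± 0.211), and the C1q chains lay at 0.102 for *C1qa*, 0.119 for *C1qb* and 0.149 for *C1qc*. Among the members, *Cd59a* and *Serping1*, both regulators, thus had the most transcript per length in both groups. Other complement genes lay higher, among them the protease gene *C1s1* (147 in *Pa1F/F* and 30.3 in *Amh-pa1-/-* cells) and the regulator *Clu* (7241 and 4487).

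The rest of the system was read from a list of 52 further complement genes, of which 39 were in the table and 22 were tested. At an adjusted p under 0.05 by edgeR 9 were lower and 1 was higher, beside 17.1% and 18.2% of all tested genes. With the fold threshold 5 were lower and 1 was higher, beside 6.56% and 5.44%. *Itgam*, 1 of the 5, passed the filter on low counts through the controls. The median log2 fold change was -0.69, beside 0.00 for all tested genes, and 11 of the 22 did not overlap between groups, beside 52.4%. With the close libraries of each group summed, 4 were called lower. Several of the lower genes are receptors of myeloid cells, which the marker list above also covers.

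Among proteases and components, *C1s1*, the C1s protease that *Serping1* inhibits, was at 5616, 8066 and 5235 normalized counts in *Pa1F/F* and at 1164, 1185 and 1548 in *Amh-pa1-/-* replicates 1 to 3. Its log2 fold change was -2.28 (SE 0.20, adjusted p = 0.000454), and it passed the thresholds under every alternative run. *C1rl*, a C1r-like protease, was lower with a log2 fold change of -0.87 (SE 0.13, adjusted p = 0.00350). *Hc*, which encodes C5, was at 69.8, 68.7 and 73.4 and at 19.5, 25.9 and 8.02, with a log2 fold change of -1.99 (SE 0.36, adjusted p = 0.00662). With the close libraries summed *C1rl* and *Hc* missed the threshold, with adjusted p of 0.0575 and 0.0705. *Cfp*, properdin of the alternative pathway, had a log2 fold change of -0.75 and an adjusted p of 0.0495, and *Colec12*, a scavenger receptor with a collectin domain, of -0.75 and 0.0327. Both missed an adjusted p under 0.05 with most single libraries left out, *Cfp* with each but *Amh-pa1-/-* replicate 3 and *Colec12* with the same 5, with adjusted p of 0.0723 to 0.140.

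Among regulators, *Cfi*, the protease factor I that cleaves C3b and C4b, was the gene that rose. It was at 289, 295 and 273 normalized counts in *Pa1F/F* and at 906, 863 and 1235 in *Amh-pa1-/-* replicates 1 to 3, with a log2 fold change of 1.81 (SE 0.15, adjusted p = 0.000374). *Clu*, clusterin, a terminal pathway inhibitor and abundant Sertoli cell product, was lower with a log2 fold change of -0.69 (SE 0.17, adjusted p = 0.0220), and missed the threshold without *Pa1F/F* replicate 1 or 3 or *Amh-pa1-/-* replicate 1 or 2, where its adjusted p was 0.0620 to 0.103. The C3 receptor chains *Itgam*, *Itgax* and *Itgb2*, which are integrins of leukocytes, were lower, with adjusted p of 0.00212, 0.00168 and 0.000218. The log2 fold changes of *Itgax* and *Itgb2* were -1.77 and -3.02. *Itgam* had 15, 16 and 14 counts against 1, 1 and 0. It passed the filter on low counts through the controls, and a filter of at least 10 counts in every library left it out. Its knockout counts were all under the floor of 3, so that its fitted log2 fold change of -4.18 depends on the prior count and is no measured size.

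**Figure D4:**
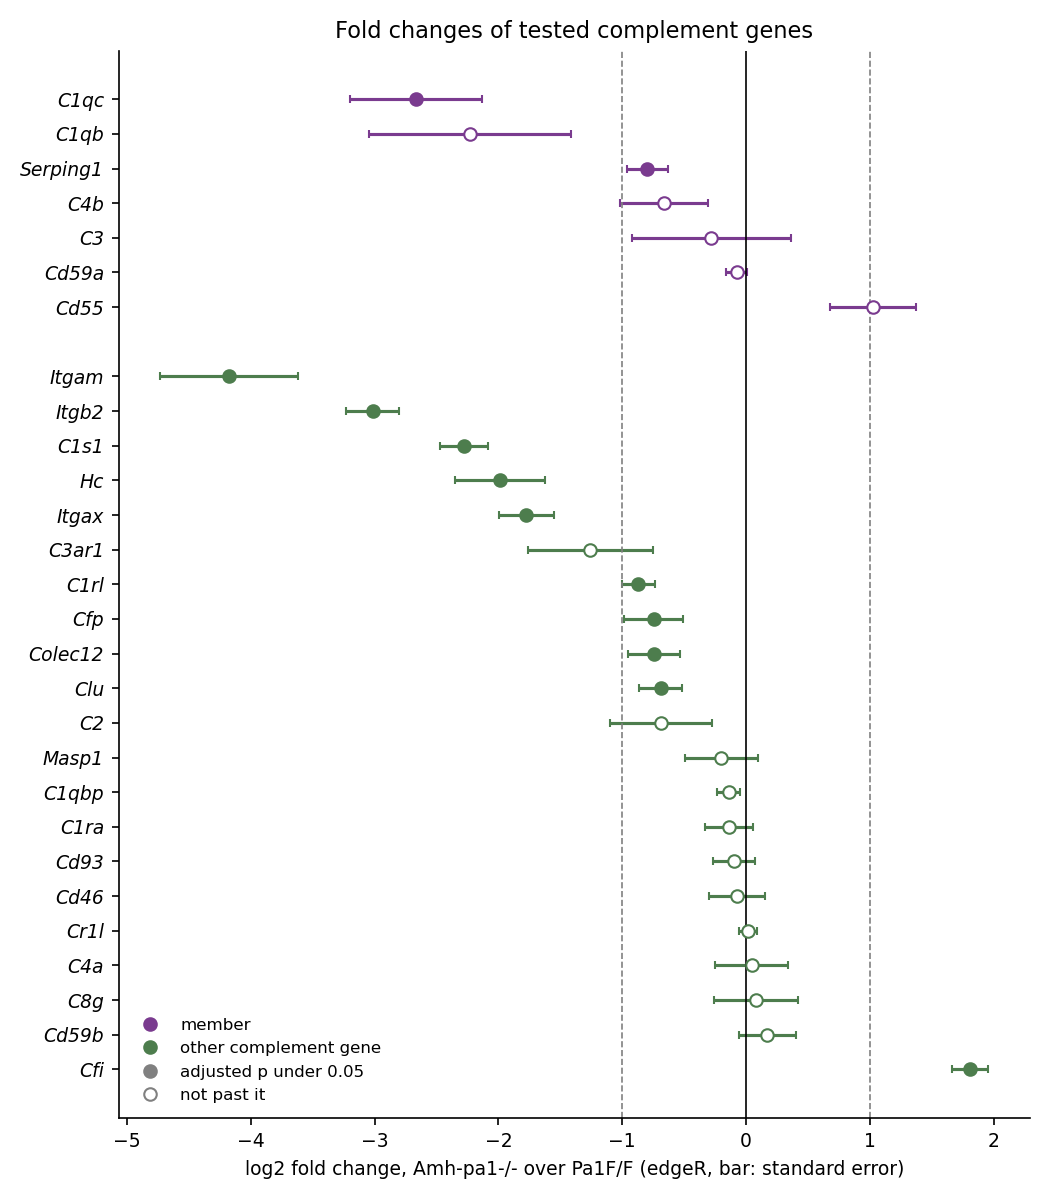
log2 fold change (horizontal axis, Amh-pa1-/- over Pa1F/F, with its standard error) of the 7 tested members and of tested other complement genes; filled symbols have an adjusted p under 0.05 and dashed lines mark a log2 fold change of -1 and 1. Most estimates lay below 0, and Cfi was the gene past both thresholds on the higher side.

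**Figure D5:**
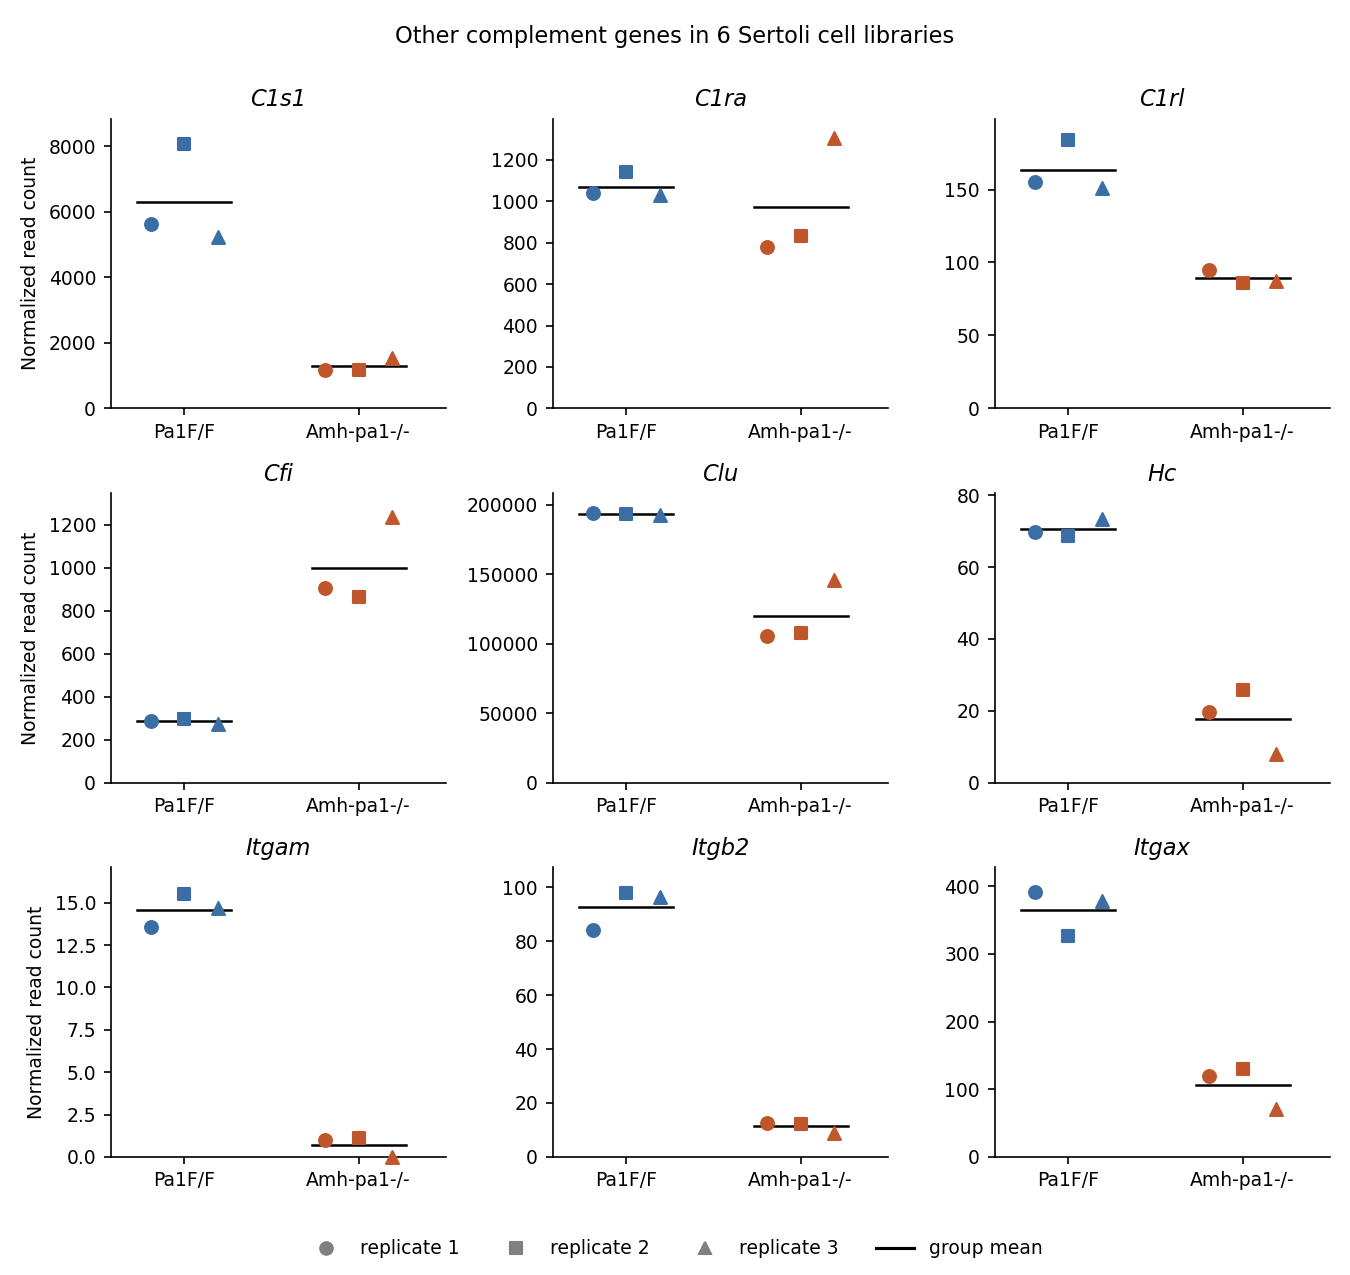
Normalized read count (vertical axes, each from 0) of 9 other complement genes in the 6 libraries, with replicate numbers as symbols and group means as black lines. C1s1, C1rl, Hc, Itgam, Itgb2, Itgax and Clu were lower and Cfi higher in every Amh-pa1-/- library than in any Pa1F/F library, while C1ra overlapped.

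The profile of each tested member over the 6 libraries was set beside the profiles of all tested genes whose mean reached 50 normalized counts. The measure was the root mean square difference of log2 CPM, centred on each gene's mean, where a smaller value is a closer profile. The genes nearest to *C3* were *Agrn*, *Ifit2* and *Irf1*, at 0.13, 0.13 and 0.19, of which *Ifit2* and *Irf1* stand on the interferon list. *Ifit2* was at 372, 1827 and 373 normalized counts in *Pa1F/F* and at 749, 742 and 669 in *Amh-pa1-/-* replicates 1 to 3. For *Serping1* they were *Trim26*, *Smarca1* and *Cyp4v3*, at 0.06, 0.08 and 0.10. For *Cd55* they were *Acer2*, *Ston1* and *Syne1*, at 0.10, 0.10 and 0.11, and *Ston1* was at 6067 and 5878 in *Amh-pa1-/-* replicates 1 and 2 but at 2953 in replicate 3. For *C1qc* they were *Serpini1*, *Hsd3b1* and *Fxyd1*, at 0.24, 0.25 and 0.26, and for *C1qb* they were *Rerg*, *Lgi2* and *Pdlim3*, at 0.19, 0.31 and 0.33. *C4b* was nearest to *9830144P21Rik*, *Cacng7* and *Eml1*, and *Cd59a* to *Retreg3*, *Tspan3* and *N4bp2*. These are likenesses over 6 libraries that share their preparation, and no p is given.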

How the data were processed

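RNA-seq of 6 libraries of isolated mouse Sertoli cells was used, 3 per genotype, grouped by the labels. Per the authors, total RNA was taken with Trizol, unattached germ cells had been washed off after 8 h, reads were aligned to GRCm38 with HISAT2 2.1.0, and HTSeq 0.6.0 gave the deposited raw counts per gene. The strand setting is not given in the sources used here. The deposited columns of the authors' own comparison (fold changes and p-values) were not used.

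Counts were tested in R 4.3.3 with edgeR 4.0.16 (quasi-likelihood test, TMM, filterByExpr with a minimum count of 10 and a minimum total of 15, Benjamini-Hochberg over 14919 genes). DESeq2 1.42.0 and limma 3.58.1 were alternatives. Calls required an adjusted p under 0.05 together with a log2 fold change of 1 or more in size. On simulated data 100% of 200 genes changed by a log2 fold of 2 were recovered (14942 genes tested). The simulation gave every gene the same dispersion, set no library apart and changed only genes above a minimum mean count. It therefore does not measure recovery for members with low counts or for libraries as uneven as these. Promoter sequences came from RefSeq. 1 tested complement gene is counted but not reported singly here. Transcript lengths were Ensembl canonical. The text names the members, other complement genes past the adjusted p, the 3 nearest profiles per member, list genes past both thresholds and defining markers. Members and lists were chosen with earlier results of these data known. Depth sets the precision of the C1q and *Cfb* values, and floors cover counting error only.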

Additional observations from a re-analysis of the deposited data

How the results depend on the processing

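15 alternatives were tried. For the 17 single genes they gave 232 values, of which 199 kept direction and side of the threshold, 25 lost the adjusted p threshold, 5 gained it and 3 reversed. The reversed values were those of *C3*, at 0.19 with limma-voom, 0.18 with the replicate block and 0.996 without *Pa1F/F* replicate 2, while leaving out 1 library at a time gave -0.65 to 0.996. The members called lower (1) were 3 with DESeq2's Wald test, 2 with no filter on low counts, 0 with at least 10 counts in every library, 0 with the close pairs of libraries summed, 2 with no fold threshold and 1 to 3 with 1 library left out. Members called higher (0) were 1 with no filter and 0 to 1 with 1 library left out.

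Other complement genes called lower (5) were 8 with no filter, 2 with at least 10 counts in every library, 9 with no fold threshold and 5 to 8 with 1 library left out, the most without *Amh-pa1-/-* replicate 3. Those called higher (1) were 2 with no filter and 1 to 2 with 1 library left out. Acute phase genes called lower (4) were 1 with limma-voom, 1 with at least 10 counts in every library, 1 with close pairs summed and 1 to 6 with 1 library left out, and those called higher (1) were 0 to 1. Interferon response genes called lower (1) were 2 with DESeq2 size factors, 0 with limma-voom, 14 with no filter, 0 with close pairs summed, 0 with the replicate block and 0 to 7 with 1 library left out, and those called higher (0) were 0 to 2, the most without *Pa1F/F* replicate 2. The causes were not tested, except that a filter changes which genes are tested.

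Replicate numbers are shared by the groups, but same-numbered libraries did not deviate together, with correlations of 0.11, -0.16 and -0.18, so the block is no pairing of animals. *Pa1F/F* replicate 2 correlated best with *Amh-pa1-/-* replicate 3, at 0.21. With the replicate block, 1 member was called lower and 0 higher, 5 other complement genes lower and 1 higher, and 3 acute phase genes lower, and *Clu* and *Cfp* missed the adjusted p threshold (0.0773 and 0.0850). Low counts limit *C1qa*, *C1qb*, *C1qc*, *C4b* and *Cfb*.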
